A study of Saccharina japonica with 2 samples.

Results

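The annotation of the Saccharina japonica transcriptome placed 6 unigenes under circadian rhythm of mammals, separately from the larger plant clock group, and all 6 of them are described here, out of 70288 unigenes with a uniquely aligned read. They fall into 2 protein groups of 3 unigenes each. Unigene21586, Unigene59154 and Unigene7036 were annotated as S-phase kinase-associated protein 1 (SKP1), and Unigene12447, Unigene16616 and Unigene56816 as ring-box protein. Membership was read from the annotation and not from any expression value.

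Sporophytes of this kelp were cultured in darkness for 4 h and then kept in seawater for 2 h, either in darkness or under blue light (BL). Healthy vegetative thalli from several individuals were mixed for each treatment and gave 1 poly(A) RNA library per treatment, with no gene altered in either. The sample labels call the thalli mature, while the methods of the study speak of juvenile sporophytes. With 1 library per treatment the differences have no replicate check, and the tests compare a pair of libraries rather than the treatments.

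The dark library held 10905306 uniquely aligned reads and the BL library 11410538, on 61927 and 69362 unigenes. All 9 annotated unigenes picked as kelp tissue markers (light harvesting complex proteins, the alginate enzyme mannuronan C-5-epimerase and vanadium-dependent bromoperoxidase) had reads in both libraries. So did 61001 of all 70288 unigenes. The unigenes were built from the reads of these same libraries, so this is no check of the tissue. The read-weighted GC content was 51.1% in darkness and 54.2% in BL. Thalli contain several cell types, and fewer cells of a type and less RNA per cell cannot be told apart in such data.

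SKP1 and ring-box proteins are core subunits of the SCF ubiquitin ligases. A cullin scaffold holds the ring-box protein at one end, where it recruits the ubiquitin-conjugating enzyme, and SKP1 at the other, where it holds an exchangeable F-box protein that selects the substrate. The animal clock uses such ligases to remove its PERIOD and CRYPTOCHROME repressors, and the plant clock uses one with the F-box photoreceptor ZEITLUPE (ZTL) to remove TOC1, but the same subunits also serve the cell cycle, signalling and many other substrates. Ring-box protein works with other cullins besides that of SCF, among them CUL4, which carries DNA damage-binding protein 1 in place of SKP1.

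The label therefore rests on ligase subunits of general use and not on clock transcription factors. None of the 6 best database matches was an animal protein. The 3 SKP1-like unigenes matched Phytophthora infestans, an oomycete that belongs to the stramenopiles like the kelp, and the ring-box unigenes matched the green alga Chlamydomonas. Unigene59154 and Unigene7036 matched the same SKP1 entry, and Unigene16616 and Unigene56816 the same ring-box entry, so that each pair may be pieces or copies of 1 gene, which was not tested. A second description in the annotation calls Unigene12447 a "promoting complex" protein. The anaphase-promoting complex, a ligase of the cell cycle, has a RING subunit of its own that is related to ring-box protein, and which of the 2 this unigene encodes was not tested. Unigene sequences were not analysed here.

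Levels are given as RPKM, reads scaled to unigene length and to all uniquely aligned reads of a library, with exact 95% Poisson intervals that cover counting error only. In darkness Unigene16616 (ring-box, 997 bp) was the most abundant of the 6, with 1401 reads or 129 RPKM (interval 122 to 136). Unigene7036 (SKP1-like, 700 bp) followed with 536 reads or 70.2 RPKM (interval 64.4 to 76.4), and Unigene12447 (ring-box, 2303 bp) with 1262 reads or 50.2 RPKM (interval 47.5 to 53.1). Unigene21586 (SKP1-like, 1321 bp) was the lowest with a dark read, at 243 reads or 16.9 RPKM (interval 14.8 to 19.1). Each of these 4 levels stood apart from the next by more than counting error, the closest being Unigene7036 over Unigene12447, 1.40-fold (interval 1.26 to 1.55).

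The 2 shortest unigenes had no read in darkness, Unigene59154 (SKP1-like, 255 bp) and Unigene56816 (ring-box, 239 bp). A count of 0 allows up to 3 reads, which would be 1.08 RPKM for Unigene59154 and 1.15 RPKM for Unigene56816. Of all unigenes under 500 bp, 16.6% had no dark read, against 2.39% of the longer ones, so an empty dark count was also found in many other short unigenes.

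In BL the order was different. Unigene16616 had 1555 reads or 137 RPKM (interval 130 to 144) and Unigene7036 had 1029 reads or 129 RPKM (interval 121 to 137). These highest levels did not differ beyond counting error, with a ratio of 1.06 (interval 0.98 to 1.15). Unigene21586 came close behind at 1499 reads or 99.4 RPKM (interval 94.5 to 105), and Unigene7036 exceeded it 1.30-fold (interval 1.20 to 1.40). Unigene12447 had fallen to 591 reads or 22.5 RPKM (interval 20.7 to 24.4). Unigene59154 had 29 reads or 9.97 RPKM (interval 6.67 to 14.3), and Unigene56816 had 7 reads or 2.57 RPKM (interval 1.03 to 5.29).

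**Figure D1:**
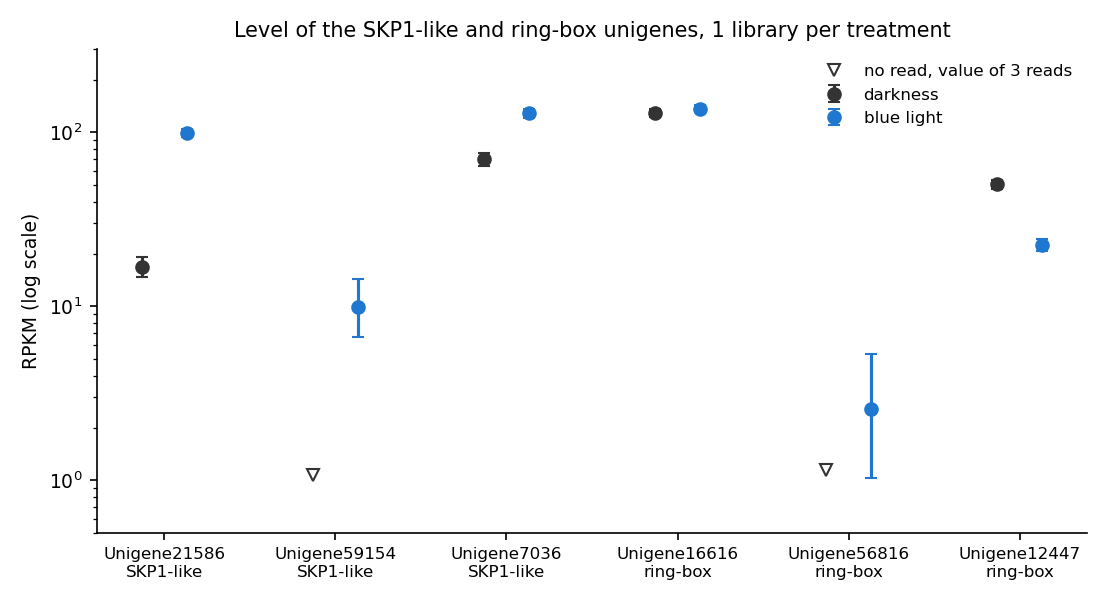
RPKM of the 6 unigenes (y axis, log scale) in the dark library (black) and the BL library (blue), with exact 95% Poisson intervals; open triangles stand at the value of 3 reads where a library had none. Unigene21586 moved from 16.9 to 99.4 RPKM, Unigene12447 from 50.2 to 22.5 RPKM, and Unigene16616 stayed near 129 to 137 RPKM.

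The 4 longer unigenes were among the well expressed ones of the transcriptome. In darkness Unigene16616 stood above 96.6% of all unigenes by RPKM, Unigene7036 above 93.3%, Unigene12447 above 90.8% and Unigene21586 above 78.9%. In BL Unigene21586 stood above 96.3% and Unigene12447 above 82.5%. Reads covered at least 97% of the length of each of these 4 in both libraries, the lowest value being 97.61% for Unigene12447 in BL. These values give the covered length only, and how evenly the reads lay along a unigene was not analysed. The BL reads covered 84.31% of Unigene59154 and 92.05% of Unigene56816. None of the 6 sequences held an unknown base.

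The exact Audic-Claverie test, taken 2-sided, compared the reads of both libraries, and the P values of the 70288 unigenes were adjusted together after Benjamini and Hochberg (FDR). A unigene was taken as up- or downregulated when P did not exceed 0.05, FDR did not exceed 0.001 and the log2 ratio of BL over dark RPKM was 1 or more in size. For this fold criterion alone, an empty library was set to 0.001 RPKM and not to 3 reads. The 8361 unigenes with no dark read therefore met it, also at the stricter size given below, and were decided by P and FDR. Such unigenes, among them Unigene59154 and Unigene56816, were counted through their BL reads alone and could only be called higher. The 926 unigenes with no BL read could likewise only be called lower. Of the 6 unigenes, 2 were upregulated, 1 was downregulated and 3 were neither. Across the transcriptome 25.0% of unigenes were upregulated and 11.6% downregulated by the same rule, so that 2 and 1 of 6 lie near the background. With TMM factors the background was 20.01% up and 16.4% down, with median-of-ratios size factors 18.0% and 18.9%, and with the trend of the ratio with GC content removed 17.3% and 9.9%. Under each of these scalings 2 members were upregulated, and 1 was downregulated except with the GC trend removed, where none was.

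Some other rules lowered the count of upregulated members, of downregulated members or of both, and some kept them. Over unigenes from 500 bp, which leaves 4 members, 1 was upregulated and 1 downregulated against a background of 33.7% and 16.7%. With a read required in both libraries these were again 1 and 1, against 22.6% and 12.8%. At a log2 ratio of 2 or more in size, 2 members were upregulated and none downregulated, against 18.7% and 4.39%. With edgeR's exact test and an assumed coefficient of variation of 0.2 they were 2 and none, against 14.5% and 3.74%, and at 0.4 none in either direction, against 1.19% and 0.185%. Benjamini-Yekutieli adjustment kept 2 and 1 against 20.5% and 10.1%, Fisher's exact test against 25.0% and 11.2%, and a minimum of 10 reads against 27.8% and 12.9%.

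The median log2 ratio of the 6, with the 2 empty dark counts set to 3 reads, was 1.02, and that of all unigenes was 0.67. With the GC trend removed this order turned round, at 0.044 for the members and 0.32 for all unigenes.

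Both upregulated unigenes were SKP1-like. Unigene21586 was annotated as SKP1, the adaptor that links F-box proteins to the ligase. It rose from 243 dark to 1499 BL reads, 5.90-fold (interval 5.14 to 6.78) or 2.56 on the log2 scale (interval 2.36 to 2.76). Its FDR was 1.7e-206 by the exact Audic-Claverie test. Its ratio was 2.27 with TMM factors, 2.14 with median-of-ratios size factors and 2.03 with the GC trend removed, and it was upregulated under each. It was higher than 89.1% of the ratios of the 34252 unigenes with 50 or more reads that neither library missed. Unigene59154 had no dark read, so higher in BL was the only direction open to it. It went from 0 to 29 reads and was 9.24-fold higher in BL when 3 reads stood for the empty library. The exact lower bound, which also takes in the counting error in BL, was 7.05-fold, and the FDR was 2.9e-08 by the exact Audic-Claverie test. The difference is larger than counting error in both, but a spread between samples could not be measured. At a biological coefficient of variation set to 0.4, edgeR's exact test gave an FDR of 0.0341 for Unigene21586 and 0.00626 for Unigene59154, and neither passed.

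The SKP1-like Unigene7036 had 536 dark and 1029 BL reads, 1.83-fold more in BL (interval 1.65 to 2.04) with an FDR of 2.6e-30 by the exact Audic-Claverie test. Its log2 ratio of 0.88 (interval 0.72 to 1.03) was below the fold threshold. The ratio was 0.59 with TMM factors, 0.46 with median-of-ratios size factors and -0.16 (interval -0.31 to -0.0048) once the GC trend was removed, so its direction depended on the scaling.

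The downregulated unigene was Unigene12447, annotated as a ring-box protein, the RING subunit that recruits the ubiquitin-conjugating enzyme. It fell from 1262 dark to 591 BL reads, 2.23-fold lower in BL (interval 2.02 to 2.47), a log2 ratio of -1.16 (interval -1.30 to -1.02) with an FDR of 2.0e-61 by the exact Audic-Claverie test. Median-of-ratios size factors put it at -1.58 and TMM factors at -1.45. With the GC trend removed the log2 ratio was -0.65 (interval -0.79 to -0.51), which is not past the fold threshold. With an assumed coefficient of variation of 0.2, its FDR in edgeR's exact test was 0.0174 and it did not pass.

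The other ring-box unigene of high level, Unigene16616, had 1401 dark and 1555 BL reads. Its log2 ratio of 0.09 (interval -0.02 to 0.19) with total reads was within counting error, with an FDR of 0.15 by the exact Audic-Claverie test, by total reads. It turned to -0.20 with TMM factors, -0.33 with size factors by the median of ratios and -0.58 with the GC trend removed, none past the fold threshold. Unigene56816 went from 0 to 7 reads. Its BL level was 2.23-fold higher with 3 reads set for the empty library, and the exact lower bound was 1.38-fold. On the log2 scale these are 1.16 and 0.46, and with the GC trend removed 0.25 and -0.45. Its FDR of 0.029 by the exact Audic-Claverie test did not pass, and a change could not be called at this depth.

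**Figure D2:**
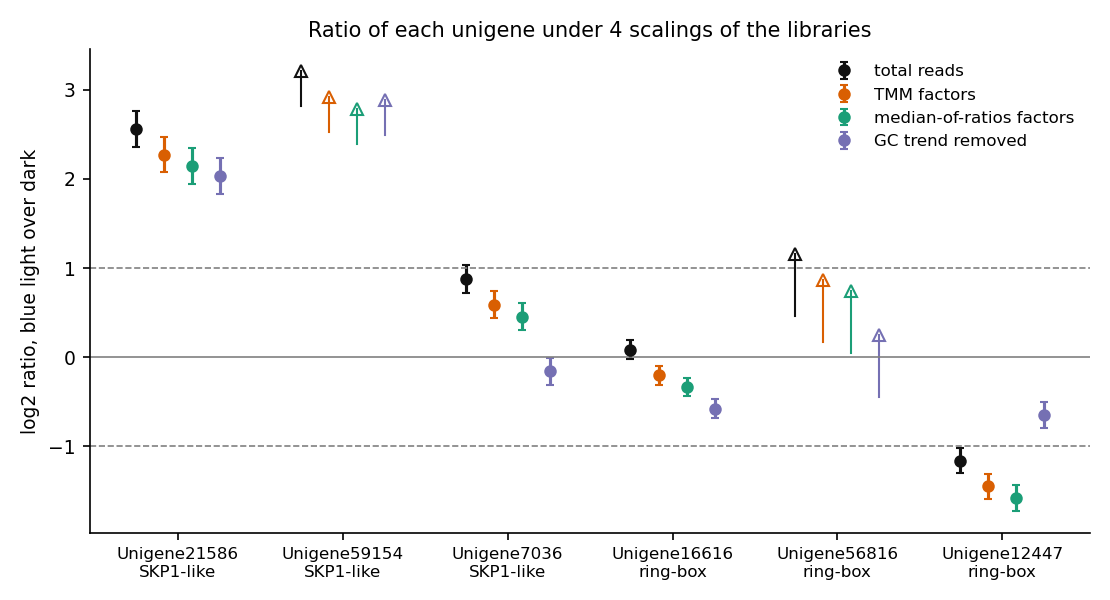
Log2 ratio of BL over dark (y axis) for each unigene with 4 scalings of the libraries, in colours; bars are exact 95% intervals, open triangles are limits with 3 reads in the empty dark library, and the line under a triangle ends at its exact lower bound. Dashed lines mark the fold threshold of 1 and -1. Unigene21586 and Unigene59154 stay above 1 under all 4 scalings, and Unigene12447 rises to -0.65 with the GC trend removed.

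Summed over the group, SKP1-like reads went from 779 in darkness to 2557 in BL, 3.14-fold more (log2 ratio 1.65, interval 1.53 to 1.77). Ring-box reads went from 2663 to 2153, a log2 ratio of -0.37 (interval -0.45 to -0.29). With total reads this fall lay in Unigene12447 (1262 to 591 reads), whose identity is open, while Unigene16616 went from 1401 to 1555 reads. The SKP1-like ratio exceeded the ring-box ratio 4.06-fold (exact interval 3.68 to 4.49), a difference that no scaling by library size can change. With TMM factors the log2 ratios of the 2 groups were 1.36 and -0.66, and with the GC trend removed 0.89 and -0.58.

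The unigene that carried most of a group's reads changed in the SKP1-like group and not in the ring-box group. Unigene7036 took 68.8% (exact 95% interval 65.4 to 72.0) of the SKP1-like reads in darkness and 40.2% (interval 38.3 to 42.2) in BL, while Unigene21586 went from 31.2% (interval 28.0 to 34.6) to 58.6% (interval 56.7 to 60.5). Per length, Unigene7036 remained the higher of the pair in both libraries, as given above. Unigene59154 held 1.13% of the SKP1-like BL reads (interval 0.76 to 1.62) and none of the 779 dark ones, which allows a share of up to 0.472% by the exact interval. In the ring-box group Unigene16616 took 52.6% (interval 50.7 to 54.5) of the dark and 72.2% (interval 70.3 to 74.1) of the BL reads, and Unigene12447 47.4% (interval 45.5 to 49.3) and 27.5% (interval 25.6 to 29.4). These shares, like all the intervals, carry counting error only. Reads that aligned to more than 1 unigene were not counted, so near-identical stretches would lower the counts of both copies.

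**Figure D3:**
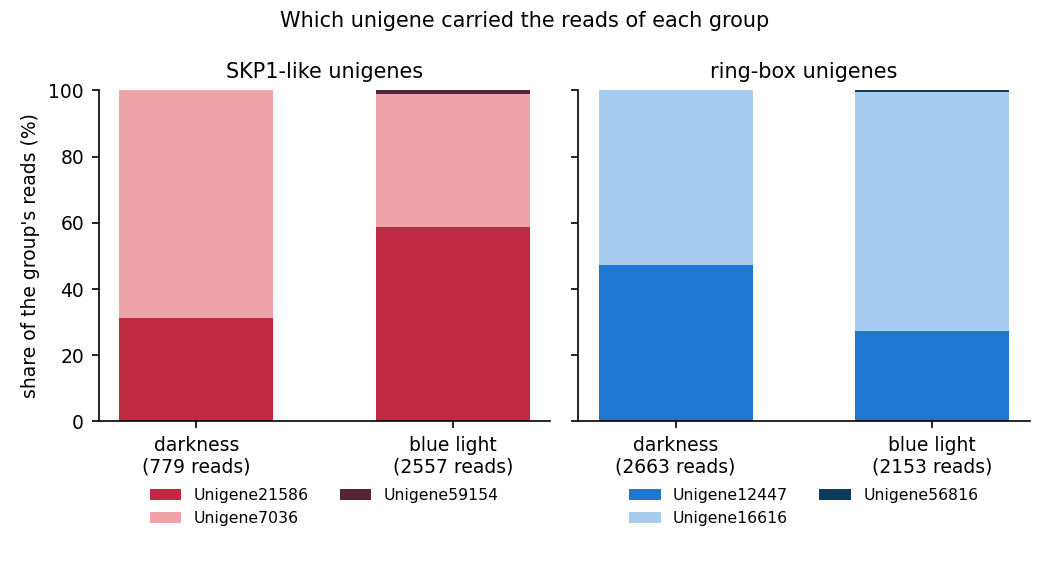
Share of each group's uniquely aligned reads (y axis, percent) taken by each of its 3 unigenes in the dark and BL libraries, SKP1-like at left and ring-box at right. Unigene21586 grows from 31.2% to 58.6% of the SKP1-like reads, and Unigene12447 shrinks from 47.4% to 27.5% of the ring-box reads.

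The 15 pairs of unigenes were compared by the ratio of their ratios, which does not depend on library size. The exact 95% interval excluded 1 for 12 pairs and included it for 3, all 3 of which involve Unigene56816 with its 7 reads. In pairs of Unigene59154 or Unigene56816 with a longer unigene, the empty dark count fixed the direction in advance. Only the pairs among the 4 longer unigenes are free of this. Within the SKP1-like group, the ratio of Unigene21586 was 3.21 times that of Unigene7036 (interval 2.70 to 3.83). The ratio of Unigene59154 exceeded that of Unigene7036, which matched the same database entry, at least 3.82-fold by the lower bound of the interval, and that of Unigene21586 at least 1.18-fold. Within the ring-box group, the ratio of Unigene16616 was 2.37 times that of Unigene12447 (interval 2.10 to 2.68). Across the groups, the ratio of Unigene21586 was 13.2 times that of Unigene12447 (interval 11.1 to 15.6).

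Some of these gaps changed with the GC trend removed, an alternative chosen after seeing the data. Unigene16616 and Unigene12447 then no longer differed beyond counting error, with a ratio of 1.05 (interval 0.93 to 1.19). Unigene21586 over Unigene12447 fell to 6.40 (interval 5.40 to 7.60), and Unigene7036 over Unigene12447 from 4.10 to 1.40 (interval 1.21 to 1.63). Within the SKP1-like group Unigene21586 over Unigene7036 became 4.56 (interval 3.83 to 5.43), and the lower bound for Unigene59154 over Unigene7036 became 6.24. The intervals of 11 pairs excluded 1 both with total reads and with the GC trend removed, among them the 3 pairs of SKP1-like unigenes. Here too the direction of pairs with Unigene59154 or Unigene56816 was fixed by their empty dark counts.

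The GC content of a unigene moved with its ratio across the transcriptome, and 5 of the 6 unigenes lay on the GC-rich side. The members spanned 48.94% to 57.71% GC and their median was 56.5%, against a median of 52.3% for all unigenes. Unigene12447 (48.94% GC) was the only one below the median of all. Unigenes of its GC class (48.79% to 49.61%) had a median log2 ratio of -0.51 and a lower quartile of -1.08, just above its own -1.16. In the class of Unigene21586 and Unigene59154 (55.39% to 56.67% GC) the median was 0.41 and the upper quartile 1.57, below the values of both. The classes were built from unigenes with 50 or more reads and a read in both libraries. Unigene59154 and Unigene56816 are not of that kind, and their values are limits. In the class of 56.67% to 57.92% GC, to which Unigene7036 and Unigene56816 belong, the median was 0.91, close to the 0.88 of Unigene7036. Unigene16616, at 56.67% on the border of these classes, lay at 0.09 below both medians. The part of GC content in these ratios was not tested beyond the values with its trend removed.

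**Figure D4:**
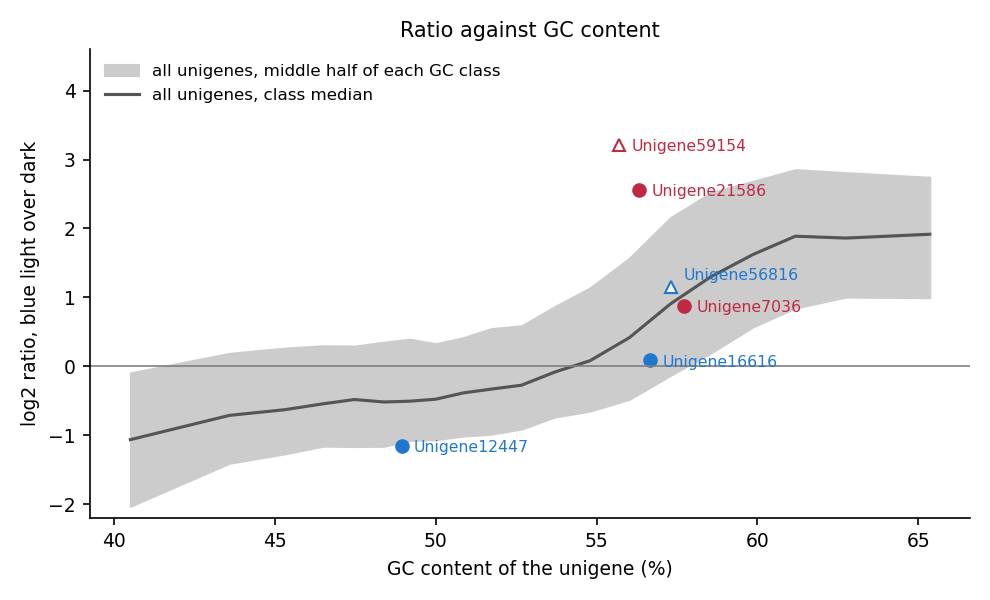
Log2 ratio of BL over dark (y axis) against the GC content of the unigene (x axis, percent). The line and the grey band are the median and the quartile range of 20 classes of the same 34252 unigenes; red marks are SKP1-like, blue marks ring-box, and open triangles are limits. Unigene21586 and Unigene59154 lie above the band, Unigene12447 just under it and the other 3 inside it. The band holds no unigene with an empty library, unlike Unigene59154 and Unigene56816.

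The annotation at hand named 53 further unigenes of the cullin ligase and ubiquitin pathway, which were counted beside the 6. Only 1998 entries of the general annotation were at hand. The ubiquitin, proteasome, anaphase-promoting complex and exchange factor lists taken from it may therefore be incomplete. Of these 29 were upregulated, 1 was downregulated and 23 were neither, with a median log2 ratio of 1.59, against 25.0% up, 11.6% down and a median of 0.67 over all unigenes. Removing the GC trend left 12 up and 11 down of the 53 with a median of 0.11, against 17.3%, 9.9% and 0.32. The shares of all unigenes stand likewise behind each list that follows. The F-box photoreceptors ZTL, FKF1 and LKP2, which in land plants bind SKP1, were 13 of 16 upregulated with a median of 2.89, or 8 up and 2 down with a median of 2.15 once the GC trend was removed. The most-read of them, Unigene11320, went from 20.5 to 122 RPKM (log2 ratio 2.58, interval 2.42 to 2.73, or 1.41 with the GC trend removed). The SKP1-like Unigene21586 had 16.9 and 99.4 RPKM, with a log2 ratio of 2.03 once the GC trend was removed. Whether these unigenes change together was not tested.

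On the ring-box side of the pathway, DNA damage-binding protein, the adaptor of CUL4, had 3 of 6 unigenes upregulated, and the DDB1- and CUL4-associated factors, which select its substrates, had 3 of 6 upregulated and 1 downregulated. With TMM factors each list had 2 of 6 upregulated and with the GC trend removed 1 of 6. The downregulated one was Unigene34020, named after its values were seen, with a drop from 65 to 28 reads (log2 ratio -1.28, interval -1.97 to -0.62). The most-read of these lists, Unigene14671 for DNA damage-binding protein and Unigene239 for the associated factors, had log2 ratios of -0.31 and 1.58, which became -0.03 and -0.17 with the GC trend removed. Both unigenes for the exchange factor of cullin ligases were upregulated, Unigene11376 (cullin-associated protein) from 20.8 to 66.1 RPKM and Unigene14212 (CAND1) from 3.23 to 32.5 RPKM. With the GC trend removed the log2 ratio of Unigene11376 was -0.21 and that of Unigene14212 was 1.47.

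The COP9 signalosome, which takes the ubiquitin-like NEDD8 off cullins, had 2 of 5 unigenes upregulated, and none with the GC trend removed. Its most-read one, Unigene16701, had a log2 ratio of -0.31 (interval -0.39 to -0.23), or -0.82 with the GC trend removed. Ubiquitin and its enzymes were 5 of 12 upregulated, with the polyubiquitin Unigene1107 at 0.03 (interval -0.07 to 0.14), or -0.25 with TMM factors and -1.84 with the GC trend removed. The proteasome, which degrades the tagged proteins, was 1 of 5 upregulated, with Unigene12119, a 26S regulatory subunit, at 0.56 (interval 0.46 to 0.65), which turned to -1.18 with the GC trend removed. None of these was downregulated with total reads, but with the GC trend removed 4 of the 12 and 3 of the 5 were, and with median-of-ratios size factors 1 of the 12. The single anaphase-promoting complex unigene at hand, Unigene14297, went from 58 reads in darkness to 69 in BL. Its log2 ratio with total reads was 0.19 (interval -0.34 to 0.71), against -1.16 for Unigene12447. With TMM factors the values were -0.10 for Unigene14297 and -1.45 for Unigene12447. With the GC trend removed they were -1.67 and -0.65, and Unigene14297 was then downregulated. Which of them was lower thus depended on the scaling.

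**Figure D5:**
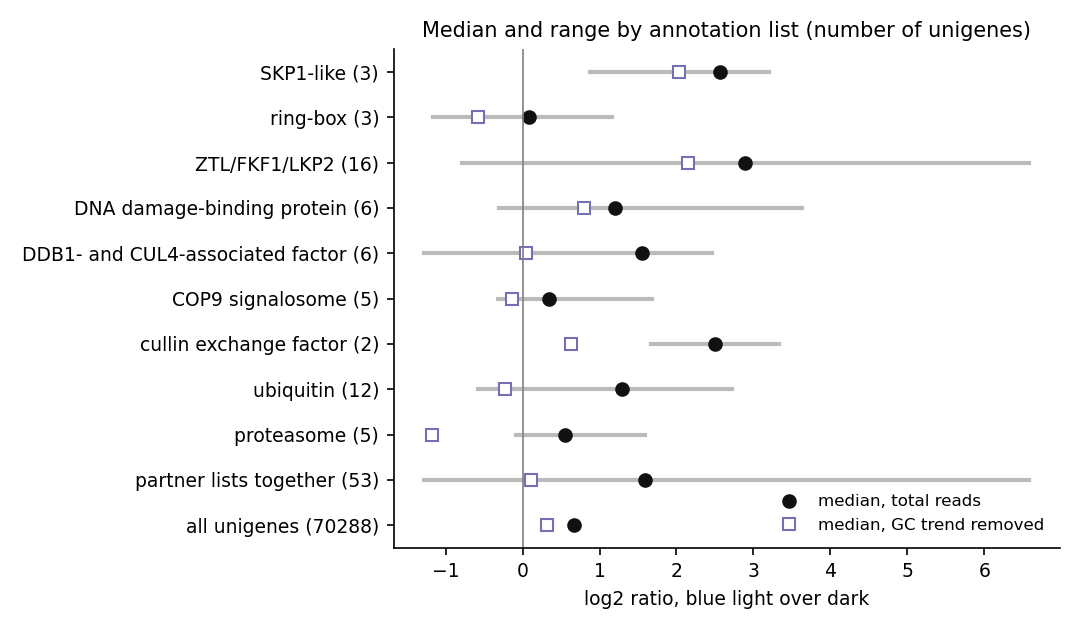
Median log2 ratio of BL over dark (x axis) by annotation list, with the number of unigenes in brackets; dots are medians with total reads, open squares medians with the GC trend removed, and grey lines the range with total reads (no range is drawn for all unigenes). The SKP1-like median is 2.56 and the ring-box median 0.09, beside 0.67 for all unigenes.

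Names shared with animal clock proteins stood elsewhere in the annotation at hand for 8 unigenes, 7 cryptochromes and a "period clock protein". Of the cryptochromes, 4 matched the DASH type and 3 an algal photoreceptor, so none of them carried an animal match. Of the 8 unigenes 4 were upregulated and none downregulated with total reads, 2 and 1 with TMM factors, and none and 2 with the GC trend removed. The most-read cryptochrome, Unigene22061, went from 422 to 966 reads (log2 ratio 1.13). Its ratio was 0.84 with TMM factors and -0.51 with the GC trend removed, so that call and direction depended on the scaling. The period clock protein Unigene10176 (392 bp), which was picked out with its values known, went from 182 reads in darkness to 129 in BL. Its log2 ratio of -0.56 (interval -0.90 to -0.23) missed the thresholds. The plant clock list takes in ZTL, FKF1 and LKP2 unigenes already counted above, so its counts are not a separate result. Of its 43 unigenes with a read, 22 were upregulated and none downregulated. With median-of-ratios size factors these were 20 and 1, and with the GC trend removed 10 and 6. The most-read of them, the casein kinase subunit Unigene229, had a log2 ratio of -0.26 (interval -0.34 to -0.18), or 0.054 with the GC trend removed. Of the 9 tissue markers 4 were upregulated with total reads, and with the GC trend removed 2 were upregulated and 1 downregulated. The most-read marker, the bromoperoxidase Unigene10972, had a log2 ratio of 3.27 (interval 3.14 to 3.39), or 1.51 with the GC trend removed.

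Among 1875 annotated unigenes with at least 50 reads, the one nearest to each of the 4 longer unigenes in the log2 RPKM of both libraries was sought, a likeness over 2 values only. Nearest to Unigene21586 was Unigene10735 (17.0 and 97.5 RPKM in darkness and BL), to Unigene7036 Unigene12785 (69.9 and 126 RPKM), to Unigene12447 the hypothetical protein Unigene14440 (48.6 and 23.4 RPKM) and to Unigene16616 the nitrite transporter Unigene10874 (137 and 128 RPKM). The first 2 carry only names of rice loci.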

How the data were processed

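RNA-seq of 1 dark and 1 BL library was analysed. The authors cleaned the reads, built unigenes de novo with SOAPdenovo and counted the reads that aligned back. The aligner is not given in the sources used here. The deposited counts are the authors' uniquely aligned reads per unigene, without normalization, and the deposited percent values are the covered length, the GC content and the unknown bases of each unigene. Unigenes not listed in a library were taken as 0 reads, which allows up to 3.

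The members come from the study's annotation of BL response genes. Members, lists and tests were chosen with earlier results of these data known. Only 1998 entries of the general annotation were at hand. RPKM used each library's total of uniquely aligned reads. Intervals are exact Clopper-Pearson or Poisson 95% intervals and ratios of ratios have exact conditional ones. Audic-Claverie P values were computed 2-sided in SciPy 1.17.1, with code tested on simulated data. No length minimum was set, since 2 members are under 500 bp. The GC trend is the line joining the median log2 ratios of 20 classes of GC content. Alternatives used TMM factors and exact tests of edgeR 4.0.16, size factors of DESeq2 1.42.0, other tests, adjustments, filters and a pseudocount of 1 RPKM. Of each pathway list the most-read unigene is named, every one of lists of 3 or fewer, and the nearest unigene by RPKM.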

Additional observations from a re-analysis of the deposited data

How the results depend on the processing

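No paired analysis was possible because each treatment has 1 library. The count of 2 upregulated members fell to 1 with a length of at least 500 bp and with at least 1 read in each library, settings that leave out Unigene59154, and to 0 with an assumed coefficient of variation of 0.4. The count of 1 downregulated member fell to 0 at a log2 ratio of 2 or more in size, with an assumed coefficient of variation of 0.2 or 0.4, and with the GC trend removed. Every log2 ratio moved by -0.29 with TMM factors and by -0.42 with median-of-ratios size factors. The ratio of Unigene16616 turned from 0.09 to -0.20 with TMM factors, -0.33 with median-of-ratios size factors and -0.58 with the GC trend removed, and that of Unigene7036 to -0.16 with the GC trend removed. The median log2 ratio of the members moved from 1.02 to 0.044 with the GC trend removed.

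For the SKP1-like sum, 1.65 became 1.36 with TMM factors, 1.23 with median-of-ratios size factors, 0.89 with the GC trend removed and 1.44 with a pseudocount of 1 RPKM (which sums RPKM and not reads). For the ring-box sum, -0.37 became -0.66, -0.79, -0.58 and -0.15 in the same order. Of the 53 pathway unigenes, the 29 upregulated became 17 at a log2 ratio of 2 or more in size, 17 and 4 with an assumed coefficient of variation of 0.2 and 0.4, and 12 with the GC trend removed. The 1 downregulated became 0 with Benjamini-Yekutieli adjustment, at a log2 ratio of 2 or more in size and with an assumed coefficient of variation of 0.2 or 0.4, then 2 with median-of-ratios size factors and 11 with the GC trend removed. Of the pairs with reads in both libraries, only Unigene12447 and Unigene16616 lost their difference with the GC trend removed, a setting added after seeing the data. Fisher's exact test and the filter at 10 reads changed no count by more than 1.5 times. The causes were not tested. The 7 reads of Unigene56816 limit what its ratio can show.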
